A study of Mus musculus with 9 samples.

Results

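The 10 genes described here encode the best-studied members of the BCL2 family, and they were chosen by gene symbol from the deposited table, which lists 26157 genes, so 10 of 26157 rows are described. They are the pro-survival genes Bcl2, Bcl2l1 and Mcl1, the effectors Bax and Bak1, and the BH3-only genes Bid, Bad, Bcl2l11, Bbc3 and Pmaip1. All 10 symbols were found once each, and all 10 passed the filter on low values. RNA was measured by poly-A sequencing in J774A.1, an established mouse macrophage line derived from a reticulum cell sarcoma, in 3 groups of 3 libraries. The Q11 libraries came from cells given Q11 together with IL-4 and IL-13. For the M2 libraries the cytokines were added without Q11, at 10 ng/mL, and the Ctrl libraries came from cells cultured without either cytokine or Q11. The labels give no cytokine dose for the Q11 libraries. The series title calls Q11 a CYP2E1 inhibitor (CYP2E1 is a cytochrome P450 enzyme), and neither its dose nor the length of treatment is given in the sources used here. There was no Q11 group without cytokines, all groups were 1 cell line, and nothing in the labels says that replicates were separate cultures, so p-values measure the spread between these libraries, which may be technical.

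BCL2 family proteins decide whether the outer membrane of the mitochondrion is opened, the step that releases cytochrome c and commits a cell to apoptosis. Pro-survival proteins hold the pore-forming effectors BAX and BAK in check, and BH3-only proteins set them free by occupying the groove of the pro-survival proteins or by binding the effectors directly. NOXA, the product of Pmaip1, binds MCL1 with strong preference and promotes its breakdown. MCL1 and BCL-XL have both been tied to the survival of macrophages, and many of these proteins are also controlled after transcription, by phosphorylation, cleavage or degradation, which RNA levels do not show.

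Values are the authors' TPM, transcript abundances scaled to a common total and already divided by gene length. Whole reads came out when that length was all annotated exons of a gene joined. Among the 10 genes it ran from 1576 bases (Bax) to 9157 bases (Bcl2). Levels of different genes, and sums and ratios across genes, can be compared only roughly where some of those exons are unused. Reads recovered from the TPM numbered 15809433 to 17089172 in 8 libraries and 32180913 in Q11 replicate 2, and the 10 genes held between 331 reads (Bbc3) and 12267 reads (Mcl1) per library. In 10 of 19235 genes, and in no others, Q11 replicate 2 had fewer reads than Q11 replicate 3. These libraries thus appear to share reads. Values called separated have the replicate 3 reads taken out of replicate 2. The fit of the deposited values counted both libraries as independent. All 9 libraries share an estimate of the spread, so this enters M2 against Ctrl too. In that comparison 1794 of 14207 genes passed as deposited and 1308 of 13996 after separation. The Q11 SDs printed below are of the deposited values. After separation the Q11 SD was larger for Bak1 (18.3 against 9.98 TPM), Bcl2l1, Pmaip1, Bid, Bcl2l11 and Bbc3. It was slightly smaller for Mcl1, Bax, Bad and Bcl2. Summed TPM of 10 macrophage markers ran from 8144 to 8239 in Q11 libraries and from 7790 to 8401 in M2 libraries. In Ctrl libraries the sum ran from 11810 to 12230. Past the test, 4 of the 10 were lower in M2 than in Ctrl cells (Lyz2, Cd14, Itgam and Ptprc), 0 were higher and 6 did not pass. Of all genes tested, 5.75% fell and 6.88% rose in that comparison. The median log2 difference of the 10 markers was -0.06, with single markers from -0.93 to 0.12. Of 17 markers of 7 other cell types in the table, 15 stayed under 2 TPM in every group, the exceptions being the T cell kinase gene Lck and S100a8, a neutrophil gene with 17.4 TPM in Q11, 23.8 TPM in M2 and 32.2 TPM in Ctrl cells. The part of these marker differences in the results below was not tested, and in bulk RNA fewer cells of a kind and less RNA per cell cannot be told apart.

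The promoter windows of Mcl1, Bcl2l1 and Bax are shown because these are the abundant members past the test in both treated groups, the pro-survival pair lower and the effector higher than in Ctrl cells. Each window runs 5′ to 3′ on the gene's strand, from 250 bases before to 50 bases after a RefSeq transcript start on GRCm38.p6. Capitals mark a motif match. In Mcl1 (chr3:95658471-95658770, plus strand) it is a CRE half-site, TGACG, on the other strand. Its first base lies 17 bases after the RefSeq start. The annotated 5′ end of the gene, at 95658788, lies past the end of this window, so the match is upstream of it.
Mcl1: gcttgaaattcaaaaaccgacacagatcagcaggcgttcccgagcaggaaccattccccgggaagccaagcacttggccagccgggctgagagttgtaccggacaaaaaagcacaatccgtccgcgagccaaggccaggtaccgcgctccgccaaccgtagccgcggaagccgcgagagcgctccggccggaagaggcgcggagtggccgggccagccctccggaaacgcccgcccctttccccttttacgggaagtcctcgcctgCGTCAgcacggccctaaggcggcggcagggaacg
In Bcl2l1 (chr2:152828440-152828739, minus strand) the capitals are a STAT6-type element, TTCNNNNGAA, at position -4 from the start of this transcript. Among the Bcl2l1 windows, only this one held a match. The annotated 5′ end of the gene, at 152831728, lies in another window (chr2:152831679-152831978).
Bcl2l1: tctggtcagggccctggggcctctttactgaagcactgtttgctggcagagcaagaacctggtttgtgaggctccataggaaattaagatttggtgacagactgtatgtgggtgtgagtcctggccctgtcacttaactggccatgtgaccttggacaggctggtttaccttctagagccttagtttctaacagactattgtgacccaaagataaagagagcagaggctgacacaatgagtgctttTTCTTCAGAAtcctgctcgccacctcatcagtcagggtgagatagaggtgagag
In Bax (chr7:45466849-45467148, minus strand) they are a p53 half-site at position -201.
Bax: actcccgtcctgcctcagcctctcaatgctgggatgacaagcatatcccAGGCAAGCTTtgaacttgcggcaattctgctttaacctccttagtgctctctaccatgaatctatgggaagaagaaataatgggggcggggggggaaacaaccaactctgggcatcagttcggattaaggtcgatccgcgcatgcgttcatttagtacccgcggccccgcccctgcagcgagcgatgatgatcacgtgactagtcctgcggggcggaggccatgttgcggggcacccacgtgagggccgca
Both strands were searched, and the STAT6-type and p53 motifs read alike on both. The RefSeq windows numbered 15 for 9 of the 10 genes. Pmaip1 had no window here, so its promoter was not searched. The STAT6-type element was found in 1 of the 15 windows, against 6.95% of all 32851 RefSeq windows of the same length, and the other 2 Bcl2l1 windows did not hold these letters. The CRE half-site was found in 3 of the 15 (Mcl1, Bcl2 and Bbc3), against 20.8% of all windows. The p53 half-site was found in 1 of the 15, against 8.36% of all windows, and the STAT element TTCNNNGAA in 0 of the 15, against 8.3%. A match describes letters only, not a site that is bound or a cause.

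Mcl1 was the most abundant of the 10 transcripts in every group and Bcl2 the least. Mcl1 averaged 375 ± 7.36 TPM in Q11 cells, 374 ± 8.33 TPM in M2 cells and 441 ± 16.6 TPM in Ctrl cells (SD, n = 3 each). Bcl2 averaged 15.5 ± 0.418 TPM in Q11 cells, 14.4 ± 2.21 TPM in M2 cells and 15.9 ± 0.465 TPM in Ctrl cells (SD, n = 3 each). Below Mcl1 came both effectors, then Bcl2l1 and Bid, and then the remaining BH3-only genes. The order changed in 2 places between groups. Bax and Bak1 overlapped in Q11 and in M2 libraries, while in Ctrl libraries all 3 Bak1 values (271 to 281 TPM) lay above all 3 Bax values (246 to 259.9 TPM). Pmaip1 ranked sixth in Q11 and Ctrl cells without touching Bad, its lower neighbour, but overlapped Bad in M2 cells. After separation it overlapped Bad in Q11 cells as well, since Pmaip1 stood at 48.9 TPM in Q11 replicate 2 and Bad at 49.4 TPM in Q11 replicate 1. Bbc3 and Bcl2l11 overlapped in Ctrl cells only. These ranges are descriptions of 3 libraries a group.

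**Figure D1:**
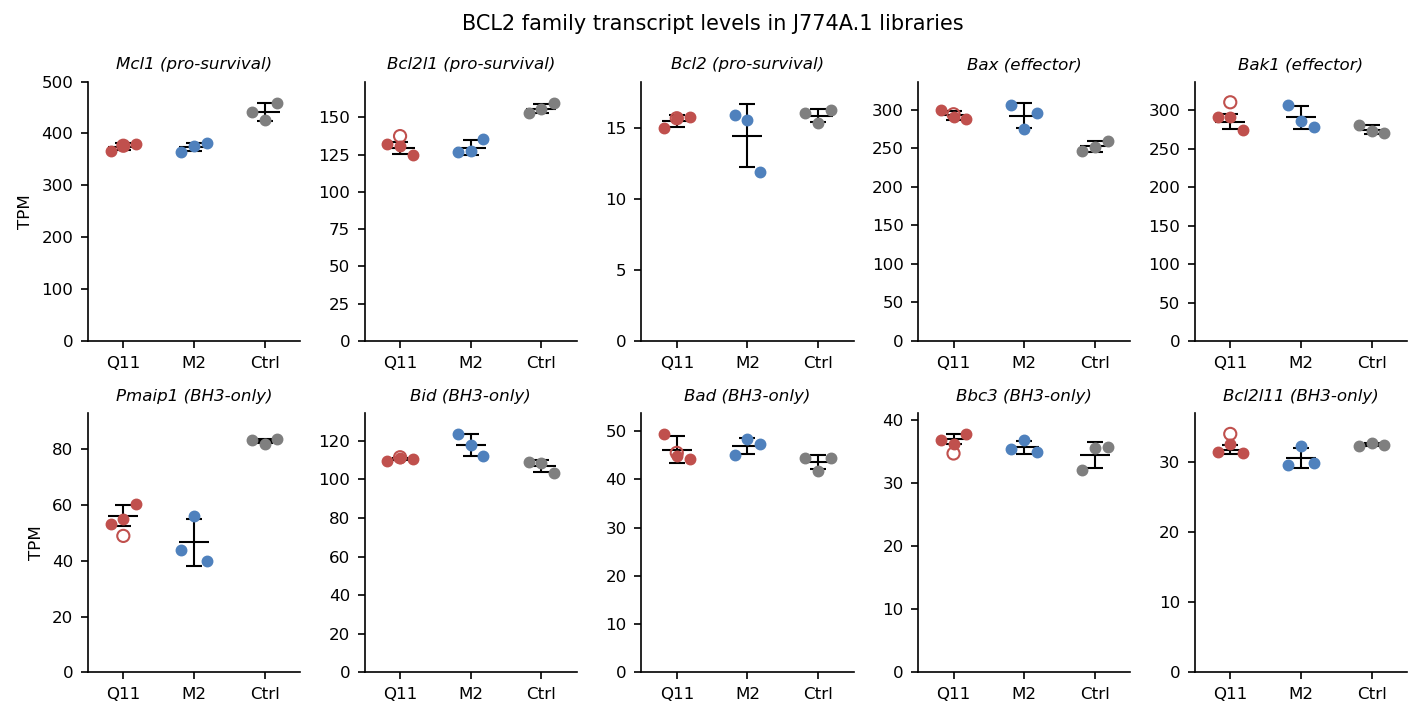
Level of each of the 10 genes in TPM (vertical axis, from 0) in Q11, M2 and Ctrl libraries, with filled points for libraries 1 to 3 from left to right, bars for the mean and SD of 3 libraries, and an open circle for Q11 replicate 2 after separation. Pmaip1, Mcl1 and Bcl2l1 lie lower in all Q11 and M2 libraries than in all Ctrl libraries, and Bax lies higher.

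Pmaip1 showed the largest difference among the 10 genes. This gene (ENSMUSG00000024521, chromosome 18, 66458533 to 66465565, plus strand, GRCm38) is a p53 target that is also induced without p53 by stress and interferon signals. It had 53.1, 54.9 and 60.5 TPM in the 3 Q11 libraries, 43.8, 56.1 and 39.9 TPM in the M2 libraries and 83.2, 82.0 and 83.6 TPM in the Ctrl libraries. The Ctrl values sat within 2 TPM of each other, every cytokine-treated library lay far below them, and M2 replicate 2 stood above its group and inside the Q11 range. The mean was 46.6 ± 8.47 TPM in M2 cells, against 82.9 ± 0.845 TPM in Ctrl cells (SD, n = 3 each), a level 43.8% lower in M2. Fitted with limma on log2(TPM + 1) over 14207 genes, Pmaip1 fell by 0.83 on the log2 scale in M2 against Ctrl cells (95% interval -1.08 to -0.59, SE 0.107, adjusted p = 0.00141). It ranked 217 from the lowest of the 14207 log2 differences, and 53 called genes stood at or below it. The difference ran from -0.97 to -0.73 over 20 other ways of fitting it, with adjusted p between 1.47e-08 and 0.0119. Behind these values were 602, 718 and 521 reads in M2 libraries and 1103, 1133 and 1115 reads in Ctrl libraries.

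Both abundant pro-survival transcripts were lower with the cytokines, by about the same ratio. Mcl1 (ENSMUSG00000038612, chromosome 3, 95658788 to 95663176, plus strand) encodes a short-lived protein that restrains BAK and BIM. It had 366, 378 and 380.1 TPM in Q11 libraries, 365, 375 and 381 TPM in M2 libraries and 441, 425 and 458 TPM in Ctrl libraries. The Q11 and M2 ranges coincided, and both lay under the lowest Ctrl library. Mcl1 fell by 0.24 on the log2 scale in M2 against Ctrl cells (95% interval -0.31 to -0.17, limma adjusted p = 0.00193), a level 15.4% lower in M2. The gene for BCL-XL, Bcl2l1 (ENSMUSG00000007659, chromosome 2, 152780668 to 152831728, minus strand), had 132, 131 and 125 TPM in Q11 libraries, 126.5, 127 and 135 TPM in M2 libraries and 153, 155 and 159 TPM in Ctrl libraries. Again both treated groups overlapped each other and not the Ctrl group. Bcl2l1 fell by 0.26 (95% interval -0.34 to -0.18, limma adjusted p = 0.00192), a level 16.8% lower in M2. The ratio between both genes stayed nearly level, at 2.90 ± 0.137 in Q11, 2.88 ± 0.068 in M2 and 2.83 ± 0.0815 in Ctrl libraries (TPM of Mcl1 over Bcl2l1, SD, n = 3 each).

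Bcl2 (ENSMUSG00000057329, chromosome 1, 106538178 to 106714274, minus strand), the founding pro-survival gene, did not pass the test. It had 15.0, 15.7 and 15.8 TPM in Q11 libraries, 15.9, 15.5 and 11.9 TPM in M2 libraries and 16.0, 15.3 and 16.2 TPM in Ctrl libraries. The groups overlapped, and M2 replicate 3 alone was low. The difference of M2 from Ctrl was -0.14 on the log2 scale (95% interval -0.35 to 0.08, limma adjusted p = 0.423), and -0.01 without M2 replicate 3.

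Of the effectors, Bax was higher with the cytokines and Bak1 did not pass the test. Bax (ENSMUSG00000003873, chromosome 7, 45461697 to 45466898, minus strand), whose product moves from the cytosol into the mitochondrial membrane, had 299.8, 291 and 288 TPM in Q11 libraries, 306, 275 and 296 TPM in M2 libraries and 246, 252 and 259.9 TPM in Ctrl libraries. M2 replicate 2 was the lowest treated library and still above every Ctrl library. Bax rose by 0.21 on the log2 scale in M2 against Ctrl cells (95% interval 0.12 to 0.30, limma adjusted p = 0.0121), a level 15.7% higher in M2, and its adjusted p ran from 0.00132 to 0.0486 over the other ways of fitting. Bak1 (chromosome 17, 27019810 to 27029009, minus strand), whose product resides in the mitochondrial membrane, had 292, 291 and 274 TPM in Q11 libraries, 307.5, 287 and 278.5 TPM in M2 libraries and 281, 274 and 271 TPM in Ctrl libraries. The lowest M2 library lay inside the Ctrl range. Its difference was 0.08 (95% interval -0.01 to 0.17, limma adjusted p = 0.268). Separation moved Q11 replicate 2 to 311 TPM for Bak1, above the rest of its group.

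The other BH3-only genes differed little between groups. Bid (ENSMUSG00000004446, chromosome 6, 120891930 to 120916853, minus strand) encodes the protein that caspase-8 cuts to link death receptors to mitochondria. Bid had 109.8, 111 and 111 TPM in Q11 libraries, 123, 118 and 112 TPM in M2 libraries and 109, 108.5 and 103 TPM in Ctrl libraries. The 3 groups stood apart in order, M2 highest and Ctrl lowest, with gaps of under 2 TPM on either side of the Q11 libraries. In M2 against Ctrl cells Bid rose by 0.14 on the log2 scale (95% interval 0.05 to 0.23, limma adjusted p = 0.0452). This call was lost after separation (adjusted p = 0.0609), and Bid passed in only 6 of 21 fits, with adjusted p from 0.0212 to 0.137 in the alternatives. Exons of Bid also overlap those of Bcl2l13 on the opposite strand, by 628 bases in the longest overlap of a single pair of exons. Bcl2l13 averaged 35.1 TPM over all libraries, and whether reads were counted by strand is not given in the sources used here, so reads in that stretch cannot be assigned.

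Bad (chromosome 19, 6941861 to 6951899, plus strand), whose product is held inactive by AKT phosphorylation, had 49.4, 44.7 and 44.2 TPM in Q11 libraries, 45.0, 48.4 and 47.2 TPM in M2 libraries and 44.3, 41.8 and 44.3 TPM in Ctrl libraries. Bad was higher in every M2 library than in every Ctrl library without passing the test (0.11 on the log2 scale, limma adjusted p = 0.232). Its exons overlap those of Gpr137 on the opposite strand, by 517 bases in the longest overlap of a single pair of exons. Bcl2l11 (chromosome 2, 128126038 to 128162547, plus strand) encodes BIM, which drives cell death after growth factor loss. It had 31.4, 32.5 and 31.3 TPM in Q11 libraries, 29.6, 32.2 and 29.9 TPM in M2 libraries and 32.3, 32.6 and 32.4 TPM in Ctrl libraries. Here the M2 libraries all lay lower than the Ctrl libraries, by a margin of about 0.1 TPM at the nearest pair, and the difference of -0.08 did not pass the test (limma adjusted p = 0.241). Bbc3 (chromosome 7, 16308393 to 16318205, plus strand) encodes PUMA, a p53 target that binds every pro-survival member. Bbc3 had 36.8, 36.3 and 37.8 TPM in Q11 libraries, 35.4, 36.8 and 34.9 TPM in M2 libraries and 32.1, 35.5 and 35.8 TPM in Ctrl libraries. Its M2 and Ctrl groups overlapped (0.05 on the log2 scale, limma adjusted p = 0.573).

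In M2 against Ctrl cells, then, 2 of the 10 genes rose (Bax and Bid) and 3 fell (Pmaip1, Mcl1 and Bcl2l1), beside 12.6% of all 14207 genes called in either direction, 6.88% rose and 5.75% fell. After separation 1 rose and 3 fell, beside 9.35% of genes called, 5% rose and 4.34% fell. The M2 and Ctrl libraries did not overlap in 7 of the 10, beside 28.4% of all genes (28.7% after separation). The median log2 difference of the 10 was -0.02, beside -0.003 for all genes tested.

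**Figure D2:**
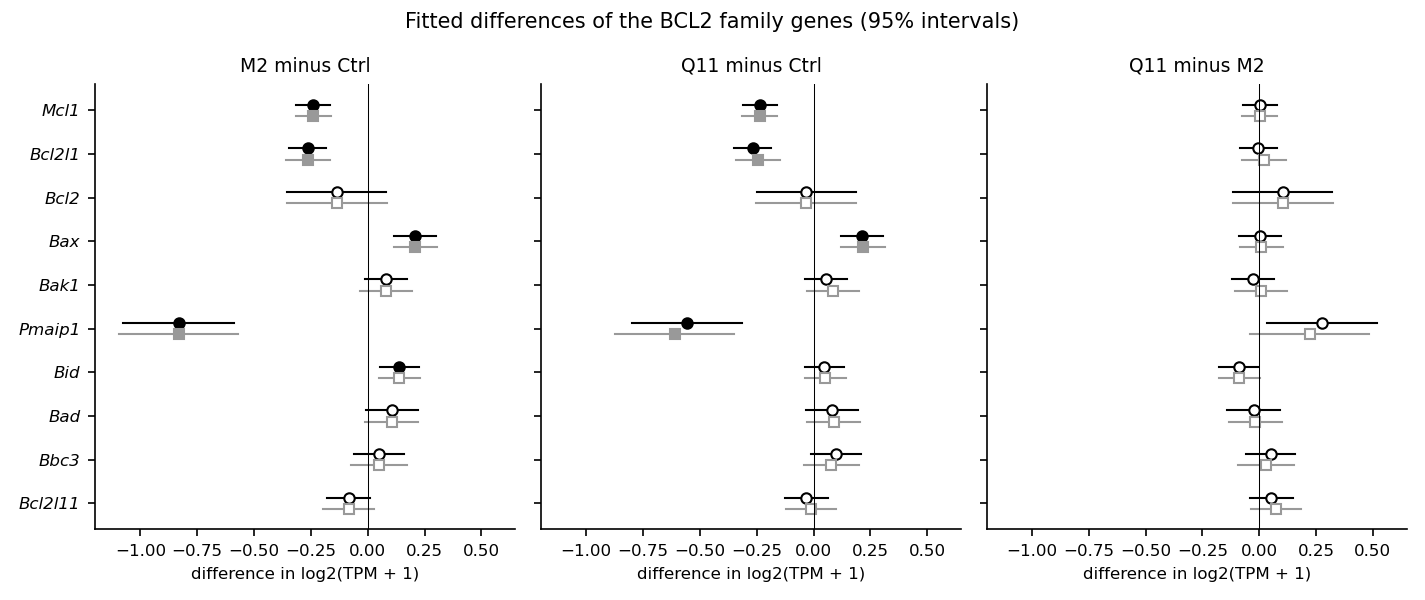
Fitted differences of the 10 genes in log2(TPM + 1) (horizontal axis) for M2 minus Ctrl, Q11 minus Ctrl and Q11 minus M2, with lines for 95% intervals, black circles for the values as deposited, grey squares after separation, and filled symbols where the adjusted p was under 0.05. Pmaip1 has the largest difference from Ctrl in both treated groups, at -0.83 in M2 and -0.56 in Q11, and no symbol is filled for Q11 minus M2.

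Adding Q11 to the cytokines left Mcl1, Bcl2l1 and Bax close to their M2 levels. In Q11 against M2 cells the log2 difference was 0.004 for Mcl1 (95% interval -0.07 to 0.08), -0.005 for Bcl2l1 (-0.09 to 0.08) and 0.003 for Bax (-0.09 to 0.10). None of the 10 genes was called in this comparison by limma, beside 0% of all genes, and none was called after separation or by limma-voom on the recovered reads. At an unadjusted p under 0.05 there were 2 of the 10, beside 11.4% of all genes. They were Pmaip1, higher by 0.28 (95% interval 0.03 to 0.52, unadjusted p = 0.0298, limma adjusted p = 0.390), and Bid, lower by 0.09 (95% interval -0.18 to -0.005, unadjusted p = 0.0405, limma adjusted p = 0.413). Q11 cells averaged 56.2 ± 3.88 TPM of Pmaip1 and M2 cells 46.6 ± 8.47 TPM (SD, n = 3 each), with M2 replicate 2 inside the Q11 range. After separation 0 of the 10 had an unadjusted p under 0.05, beside 8.12% of all genes. Separation put Q11 replicate 2 at 48.9 TPM and left a difference of 0.22 whose 95% interval, -0.04 to 0.48, includes 0 (limma adjusted p = 0.652). The Pmaip1 difference was 0.41 without M2 replicate 2 and 0.17 without M2 replicate 3, and over 20 alternatives its adjusted p ran from 0.138 to 0.821. Bid was the single member whose Q11 and M2 libraries did not overlap, beside 17.6% of all genes (12.7% after separation).

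The comparison of Q11 with Ctrl cells shares its Ctrl libraries with the comparison of M2 with Ctrl cells, so the pair cannot be read as independent. In Q11 cells 1 of the 10 genes rose against Ctrl (Bax) and 3 fell (Pmaip1, Mcl1 and Bcl2l1), beside 10.7% of all genes called, 5.19% rose and 5.53% fell. Pmaip1 fell by 0.56 on the log2 scale (95% interval -0.80 to -0.31, limma adjusted p = 0.0119), a level 32.3% lower in Q11, and by 0.61 after separation (limma adjusted p = 0.0129). Bcl2l1 fell by 0.27 (limma adjusted p = 0.00192) and by 0.24 after separation, and Mcl1 fell by 0.24 both ways (limma adjusted p = 0.00229 as deposited). Bax rose by 0.21 (95% interval 0.12 to 0.31, limma adjusted p = 0.0125). After separation 1 rose and 3 fell, beside 7.97% of all genes called, 3.89% rose and 4.08% fell. The Q11 and Ctrl libraries did not overlap in 6 of the 10, beside 32.1% of all genes, these being the called genes and, higher in Q11, Bid and Bbc3. For Bbc3 the groups overlapped after separation, which left 5 of the 10, beside 26.8% of all genes.

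Summed by role, pro-survival transcripts were fewer and effector transcripts more numerous with the cytokines, given here as levels without a test. Mcl1, Bcl2l1 and Bcl2 together came to 519.5 ± 5.31 TPM in Q11 cells, 518 ± 10.7 TPM in M2 cells and 613 ± 19.3 TPM in Ctrl cells (SD, n = 3 each). Bax and Bak1 together came to 578.5 ± 14.9 TPM in Q11, 583 ± 27.2 TPM in M2 and 528 ± 2.39 TPM in Ctrl cells. The pro-survival sum was thus below the effector sum in every treated library and above it in every Ctrl library. The ratio was 0.899 ± 0.0291 in Q11, 0.889 ± 0.0547 in M2 and 1.16 ± 0.0313 in Ctrl cells. Which sum is larger depends on the exon lengths used and the genes summed, so only the shift of the ratio between groups is read here. The 5 BH3-only genes summed to 281.5 ± 2.78 TPM in Q11, 278 ± 13.7 TPM in M2 and 300.3 ± 1.0 TPM in Ctrl cells. Pmaip1 made up 19.9% ± 1.20 of that sum in Q11, 16.7% ± 2.22 in M2 and 27.6% ± 0.329 in Ctrl cells. Set against Mcl1, whose product NOXA binds, the Pmaip1 level was 0.150 ± 0.00811 of it in Q11, 0.125 ± 0.0228 in M2 and 0.188 ± 0.00528 in Ctrl libraries. After separation Q11 replicate 2 had a pro-survival sum of 529 TPM, an effector sum of 605 TPM and a BH3-only sum of 274.5 TPM, with Pmaip1 at 0.13 of Mcl1, and it stayed on the same side of the Ctrl libraries in each. These are ratios of RNA and say nothing about protein or cell death.

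**Figure D3:**
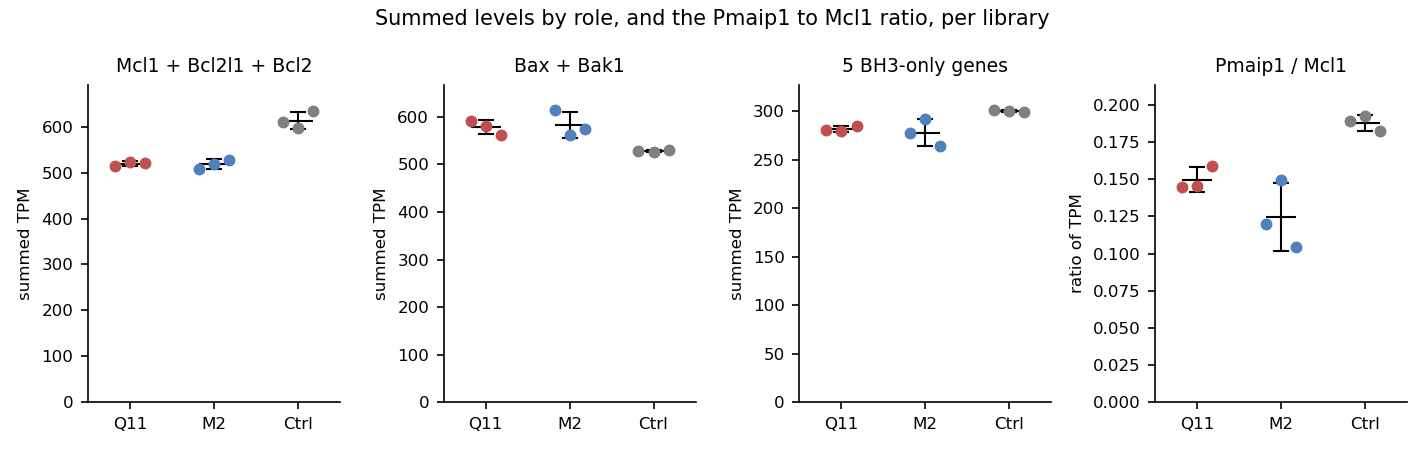
Summed TPM of the 3 pro-survival genes, the 2 effectors and the 5 BH3-only genes, and the ratio of Pmaip1 to Mcl1 TPM (vertical axes, from 0), per library in Q11, M2 and Ctrl groups, with bars for the mean and SD of 3 libraries. The pro-survival sum stands at 507 to 528 TPM in Q11 and M2 libraries and at 596 to 634 TPM in Ctrl libraries.

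Across the 9 libraries Mcl1 and Bcl2l1 varied together (Pearson r = 0.945 of log2(TPM + 1)), Pmaip1 followed Mcl1 (r = 0.869), and Bax ran opposite to both Pmaip1 (r = -0.913) and Mcl1 (r = -0.891). These values are descriptive, since the 9 points fall into groups and Q11 replicates 2 and 3 share reads. Among the 10102 genes averaging 5 TPM or more, the closest to Pmaip1 were Gm44250 (r = 0.991), Rp2 (r = 0.989) and Lamp2 (r = 0.985), the last a lysosomal membrane protein that averaged 188 TPM in Q11, 175 TPM in M2 and 214 TPM in Ctrl cells. Closest to Bcl2l1 was Il13ra1 (r = 0.991), which encodes a chain of the receptor for IL-4 and IL-13 and averaged 17.4 TPM in Q11, 16.9 TPM in M2 and 28.9 TPM in Ctrl cells, followed by Clip1 (r = 0.989) and Fmnl1 (r = 0.987). For Mcl1 they were Lrrc8c and Rps6ka2 (r = 0.984 each) and Cpd (r = 0.983). For Bax they were Dhx30 (r = 0.977), Igbp1 (r = 0.974) and Nek6 (r = 0.970), and for Bid they were Trabd (r = 0.965), Ldb1 and Twf2 (r = 0.947 each).

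Beyond the 10 genes, 12 further family members and binding partners were tested. None of the 12 passed in M2 against Ctrl cells, beside 12.6% of all genes. Bcl2l2, which encodes the pro-survival protein BCL-W, averaged 20.3 TPM in Q11, 21.1 TPM in M2 and 21.2 TPM in Ctrl cells. The pro-survival Bcl2a1 genes were at the floor, with group means of 0.918 TPM in Q11, 1.35 TPM in M2 and 1.41 TPM in Ctrl cells for Bcl2a1d, the highest of them. Reads of these near-identical copies may be split between them, so their levels are uncertain. In Q11 against Ctrl cells 1 of the 12 fell, beside 5.53% of all genes. This was Bmf, a BH3-only gene named after its values were seen, with 2.71, 3.69 and 3.85 TPM in Q11, 4.01, 3.25 and 3.78 TPM in M2 and 5.14, 5.19 and 5.22 TPM in Ctrl libraries (Q11 against Ctrl -0.50 on the log2 scale, limma adjusted p = 0.0394).

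Of 22 genes listed with the apoptosome, the caspases and their inhibitors, 1 rose and 0 fell in M2 against Ctrl cells. Of all genes tested, 6.88% rose and 5.75% fell in that comparison, as above. The gene that rose was Parp1, which encodes none of these but a DNA repair enzyme cut by caspase-3. Parp1 averaged 209 ± 5.11 TPM in Q11, 214.5 ± 7.39 TPM in M2 and 189 ± 3.86 TPM in Ctrl cells (M2 against Ctrl 0.18 on the log2 scale, limma adjusted p = 0.00859). In the death receptor pathway 0 of 12 rose and 3 fell (0 and 2 after separation). The caspase-8 inhibitor gene Cflar averaged 36.3 ± 1.10 TPM in Q11, 35.0 ± 2.03 TPM in M2 and 41.7 ± 0.773 TPM in Ctrl cells (-0.25, limma adjusted p = 0.0101). Both TNF receptor genes fell as well, Tnfrsf1b by 0.17 (limma adjusted p = 0.0120) and Tnfrsf1a by 0.15 (limma adjusted p = 0.0175). Tnfrsf1b averaged 166 ± 2.59 TPM in Q11, 171 ± 3.18 TPM in M2 and 193 ± 7.73 TPM in Ctrl cells. Tnfrsf1a averaged 208 ± 4.87 TPM in Q11, 214 ± 6.28 TPM in M2 and 237 ± 5.88 TPM in Ctrl cells, and its call was lost after separation (adjusted p = 0.0531). In Q11 against Ctrl cells 1 of the 22 rose and 3 of the 12 fell, beside 5.19% of all genes that rose and 5.53% that fell.

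Of 20 tested genes of the p53 pathway, 3 rose and 2 fell in M2 against Ctrl cells (2 rose and 2 fell after separation), beside 6.88% of all genes that rose and 5.75% that fell. The antiproliferative gene Btg2 averaged 22.4 ± 2.46 TPM in Q11, 22.9 ± 1.66 TPM in M2 and 33.0 ± 0.853 TPM in Ctrl cells (M2 against Ctrl -0.51 on the log2 scale, limma adjusted p = 0.00385). Aen, an exonuclease gene, rose by 0.30 (limma adjusted p = 0.00986), Phlda3, an AKT inhibitor gene, by 0.29 (limma adjusted p = 0.0324, and 0.0517 after separation), and the kinase gene Plk2 by 0.22 (limma adjusted p = 0.00340). Against Ctrl cells 4 of the 20 rose and 1 fell in Q11 cells (2 and 1 after separation), beside 5.19% and 5.53% of all genes. The p53 targets among the 10 family genes include Pmaip1, which fell, Bax, which rose, and Bbc3, which did not pass. Activity of p53 was not tested.

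Of 21 other regulators of BH3-only genes and MCL1, 4 rose and 2 fell in M2 against Ctrl cells (3 rose and 2 fell after separation), beside 6.88% of all genes that rose and 5.75% that fell. The PIM kinase genes Pim3 and Pim1 went opposite ways. PIM kinases phosphorylate BAD. Pim3 had 262, 265 and 259.6 TPM in Q11 libraries, 279, 259 and 263 TPM in M2 libraries and 97.3, 96.9 and 106 TPM in Ctrl libraries. All treated libraries stood well above all Ctrl libraries, and Pim3 rose by 1.41 on the log2 scale (95% interval 1.32 to 1.50, limma adjusted p = 2.79e-07). Pim1 had 54.8, 53.5 and 51.4 TPM in Q11 libraries, 52.2, 55.3 and 47.4 TPM in M2 libraries and 74.5, 69.0 and 78.2 TPM in Ctrl libraries. Pim1 thus lay lower in every treated library, and fell by 0.51 (95% interval -0.65 to -0.37, limma adjusted p = 0.00118). Atf3, a stress-induced transcription factor, rose by 0.44 (limma adjusted p = 0.00115), with 363 ± 2.70 TPM in Q11, 382 ± 31.9 TPM in M2 and 282 ± 9.07 TPM in Ctrl cells. Hif1a, the oxygen-regulated factor, averaged 56.2 ± 2.10 TPM in Q11, 46.6 ± 4.52 TPM in M2 and 58.7 ± 4.10 TPM in Ctrl cells, and fell by 0.33 in M2 against Ctrl cells (limma adjusted p = 0.0203). Its Q11 libraries lay above its M2 libraries without passing the test (0.27, limma adjusted p = 0.312). In Q11 against Ctrl cells 2 of the 21 rose and 1 fell, beside 5.19% and 5.53% of all genes. None of the genes in these lists was called in Q11 against M2 cells.

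**Figure D4:**
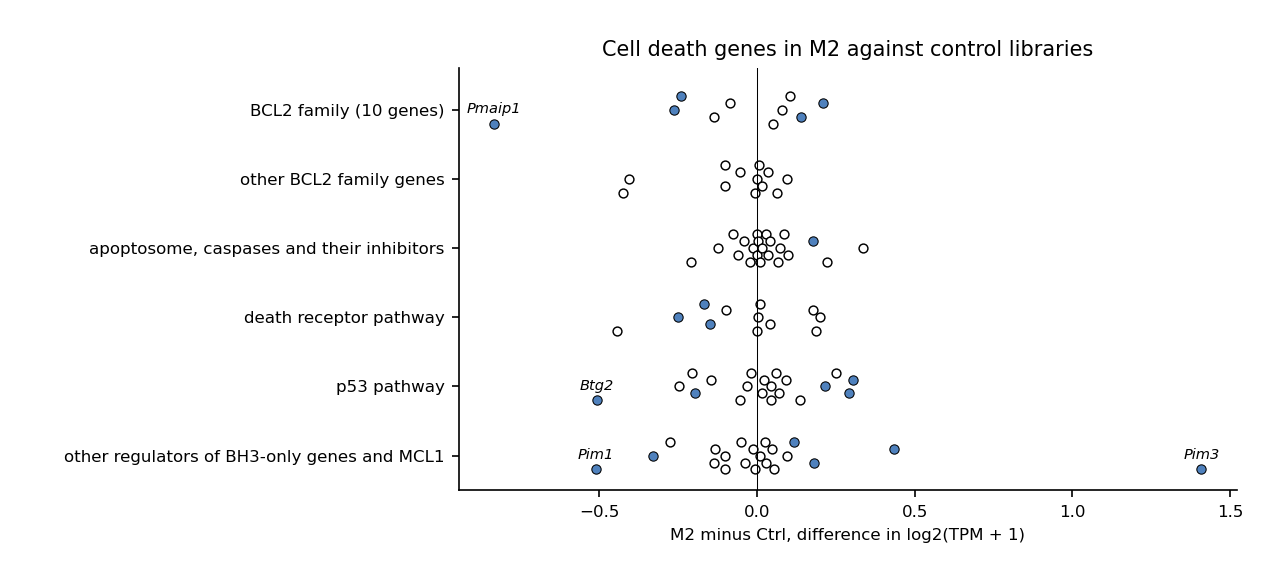
Difference of M2 from Ctrl in log2(TPM + 1) (horizontal axis) for each tested gene of the 10-gene family and of 5 related lists (1 row each, points spread vertically for legibility), with filled points where the limma adjusted p was under 0.05. Pmaip1 at -0.83 and Pim3 at 1.41 lie farthest out, and most other points lie near 0.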

How the data were processed

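Poly-A RNA of 9 J774A.1 libraries (3 each in the Q11, M2 and Ctrl groups, assigned by sample title) had been sequenced, with HISAT2 2.0.5, StringTie 1.3.3b and build GRCm38 (mm10) named per the submitters' processing notes; annotation and strand setting are not given in the sources used here. Values are the TPM per gene and library that the authors deposited in 1 table. Gene positions and exon lengths came from GENCODE M21, which held 97.8% of the IDs. Whole reads were recovered from TPM times exon length (tolerance 0.1 read), and as an alternative Q11 replicate 2 was recomputed without the reads it shares with replicate 3.

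Genes that reached 1 TPM in 3 or more libraries (14207; 13996 when separated) were fitted with limma 3.58.1 in R 4.3.3 on log2(TPM + 1), a scale that understates changes of low genes. The fit had 1 mean per group, all 9 libraries, a mean-variance trend and 6 residual degrees of freedom. Tests were two-sided, with Benjamini-Hochberg adjustment over all genes and a threshold of 0.05. The fit was tested on simulated data.

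The members, gene lists and tests were chosen with earlier results of these data known. All 10 members were named, with up to 4 called genes of largest change in M2 against Ctrl from each other list and the 3 genes most correlated with each called member. Promoter windows are from RefSeq on GRCm38.p6. Alternatives were other pseudocounts, filters and normalization, no trend, fits of only the groups compared, a replicate block, limma-voom on recovered reads, separation, and leaving out each library.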

Additional observations from a re-analysis of the deposited data

How the results depend on the processing

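Pmaip1, Mcl1, Bcl2l1 and Bax kept their direction and their call in all 21 fits of M2 against Ctrl and of Q11 against Ctrl. Some calls in Q11 against Ctrl were near the threshold. The highest limma adjusted p there was 0.0476 for Pmaip1 (without Q11 replicate 2) and 0.0483 for Bax (without Ctrl replicate 1). Bid passed in M2 against Ctrl in only 6 of 21. Leaving out 1 library at a time left 4 to 5 of the 10 genes called in M2 against Ctrl, 4 in Q11 against Ctrl and 0 in Q11 against M2. The count over all genes in M2 against Ctrl (1794) was 1054 when only those groups were fitted and 1139 to 1651 with 1 library left out. In Q11 against Ctrl (1524) it was 776 to 1613 with 1 library left out, the lowest without Q11 replicate 3 (776) and without Q11 replicate 2 (798). In Q11 against M2 (0) it was 3 with no filter, 2 with limma-voom, 2 with no trend and 0 to 2 with 1 library left out. Replicate numbers did not pair the libraries (same-number correlations of deviations from -0.031 to 0.036); a replicate block gave 1335 genes in M2 against Ctrl and 1086 in Q11 against Ctrl, with 4 of the 10 called in each, and 903 and 745 genes when combined with separation, a fit chosen after seeing the data. The cause of these shifts was not tested.

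Changes of sign occurred only in Q11 against M2, among differences near 0. With 1 library left out, the log2 difference ran from -0.02 to 0.03 for Bcl2l1, -0.06 to 0.01 for Bak1, -0.04 to 0.04 for Bax, -0.01 to 0.02 for Mcl1, -0.02 to 0.18 for Bcl2 (the lowest without M2 replicate 3) and -0.07 to 0.0036 for Bad. Bcl2l1 also gave 0.01 with quantile normalization, 0.02 separated, 0.01 with voom separated and 0.02 with the block and separation. Bak1 gave 0.01 separated, with and without the block. Bax gave -0.002 with voom, and Mcl1 -0.0047 with voom separated.

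Only 3 libraries a group limit the precision to the 95% intervals printed above, and shared reads leave the Q11 group with less information than its 3 columns imply.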
